A study of Mus musculus with 20 samples.

Results

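The subject here is 49 published gene sets on oxygen lack and glucose use, out of 3886 sets listed for the series. Their scores describe gene expression, and the supply of oxygen or glucose was not analysed here. The 49 are the sets whose names contain HYPOXIA, HIF1, GLYCOLYSIS, GLUCONEOGENESIS, GLUCOSE or PENTOSE_PHOSPHATE. A hypoxia response group held 28 of them, which list genes that answer to low oxygen or to hypoxia-inducible factor 1 (HIF1). A metabolic pathway group held 6 curated pathways of glucose breakdown, glucose synthesis and glucose control. The other 3 glucose sets were a glucose starvation signature and a pair of curated lists from 1 source. A further 12 sets had names ending in _DN, which list genes that fell in the experiment they come from, and these were counted apart from the 37 sets before them. All 49 were listed in all 7 comparisons, with 18 to 246 genes each and a median of 56, and they came from 20 sources by the first word of their names.

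The series is 20 messenger RNA libraries of C57BL/6 mouse material. Myeloid cells, the blood cell branch of neutrophils, monocytes and macrophages, were taken from adult animals with a kit that depletes cells carrying CD3e, a T cell surface protein, and gave 14 libraries. B16F10 tumour-bearing animals gave 3 bone marrow and 2 spleen libraries, YUMM3.3 tumour-bearing animals gave 2 bone marrow and 2 spleen libraries, and healthy animals gave 3 bone marrow and 2 spleen libraries. YUMM3.3 cultures and B16F10 cultures gave 3 libraries each after growth on plates. B16F10 and YUMM3.3 are mouse melanoma cell lines, so each tumour condition stands on 1 line. No label links a library to an animal, ages are given only as adult, and the same mice may or may not have supplied both tissues. A kit that removes T cells leaves other white and red cells in place, and the level of any defining marker gene of myeloid cells was not analysed here. In bulk libraries such as these, fewer cells of a type and less RNA per cell cannot be told apart.

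HIF1 is a transcription factor whose alpha subunit is hydroxylated and destroyed by the proteasome when oxygen is plentiful, and which accumulates when oxygen is short. It raises glucose transporters, nearly all enzymes of glycolysis, lactate dehydrogenase and angiogenic factors, which shifts a cell towards making ATP without oxygen. Neutrophils and inflammatory macrophages rely strongly on glycolysis even when oxygen is present, and the pentose phosphate pathway supplies the NADPH of their oxidative burst.

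Each value is a normalised enrichment score (NES) from the authors' gene set enrichment analysis. That method ranks all genes by their difference between a pair of groups and asks whether the genes of a set gather at an end of the ranking. A positive NES below stands for higher expression in the group named first, and a negative NES for lower. A set was called higher or lower at a deposited false discovery rate q below 0.05. No replicate values stand behind an NES, so no SD is given, and the q measures the ranking of genes and not the spread between animals or cultures. The leading edge is the share of a set's genes that come before the point of strongest enrichment.

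The oxygen and glucose sets were called higher most often in the marrow of B16F10-bearing animals. There, against healthy marrow, 16 of the 37 sets were higher and 0 were lower, where 20.1% of all listed sets were higher and 5.0% lower. Their median NES was 1.53, beside 0.96 over all listed sets. In the spleen of B16F10-bearing animals against healthy spleen, 8 of the 37 were higher and 0 lower, where 16.6% of all sets were higher and 1.60% lower, and the median was 1.34 beside 1.09. The 8 of 37 in spleen is 21.6%, close to that background.

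YUMM3.3-bearing animals had fewer such calls in marrow. In YUMM3.3-bearing against healthy marrow, 2 of the 37 sets were higher and 1 lower, where 9.68% of all sets were higher and 6.52% lower, and the median was 0.79 beside 0.74. In YUMM3.3-bearing against healthy spleen, 8 were higher and 1 lower, where 15.6% of all sets were higher and 5.31% lower, but the median was -0.82 beside -0.69. In spleen 18 of the 37 sets had a positive score, as had 1876 of the 3883 sets listed there, so the signs were near the background.

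The tumours were also set against each other directly, which is the test of their difference. In B16F10-bearing against YUMM3.3-bearing marrow, 2 of the 37 sets were higher and 2 lower, where 8.09% of all sets were higher and 8.40% lower, with a median of 1.00 beside 0.72. In B16F10-bearing against YUMM3.3-bearing spleen, 7 were higher and 0 lower, where 9.63% of all sets were higher and 1.47% lower, with a median of 1.26 beside 1.04. In YUMM3.3 cultures against B16F10 cultures, 6 were higher and 0 lower, where 11.8% of all sets were higher and 1.47% lower, with a median of 0.80 beside 1.08. The 3 myeloid comparisons within a tissue share their libraries, so their values are set side by side and not counted as separate evidence.

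**Figure D1:**
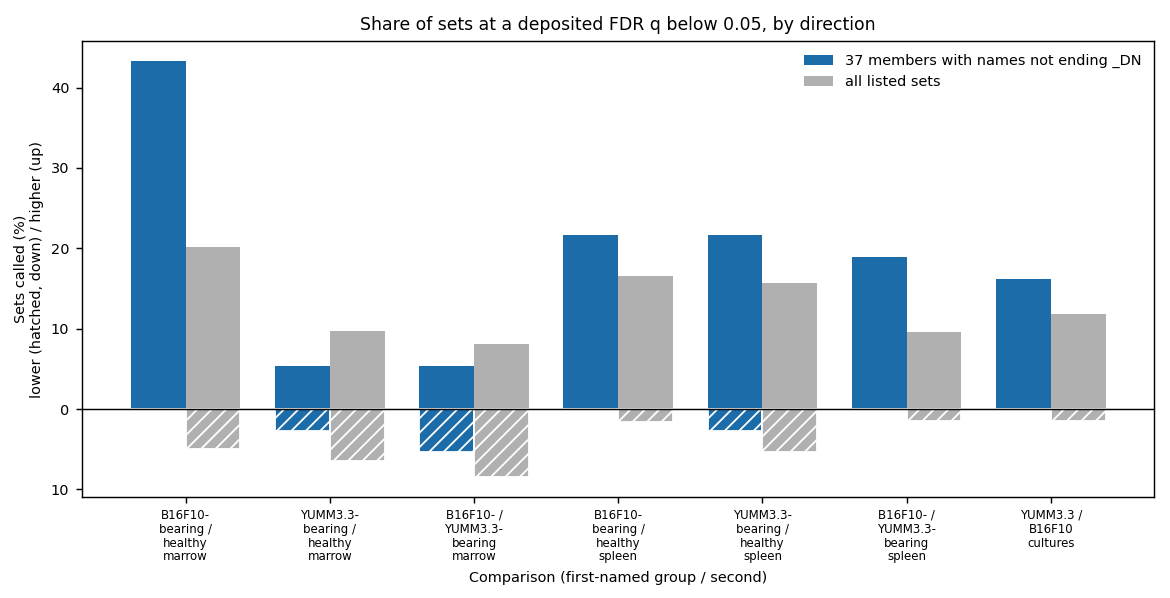
Share of sets called higher or lower at a deposited FDR q below 0.05, in percent, for the 37 oxygen and glucose sets not ending in _DN and for all listed sets, in each of the 7 comparisons. The bars for sets higher in B16F10-bearing against healthy marrow stand at 43.2% for the oxygen and glucose sets and 20.1% for all listed sets.

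**Figure D2:**
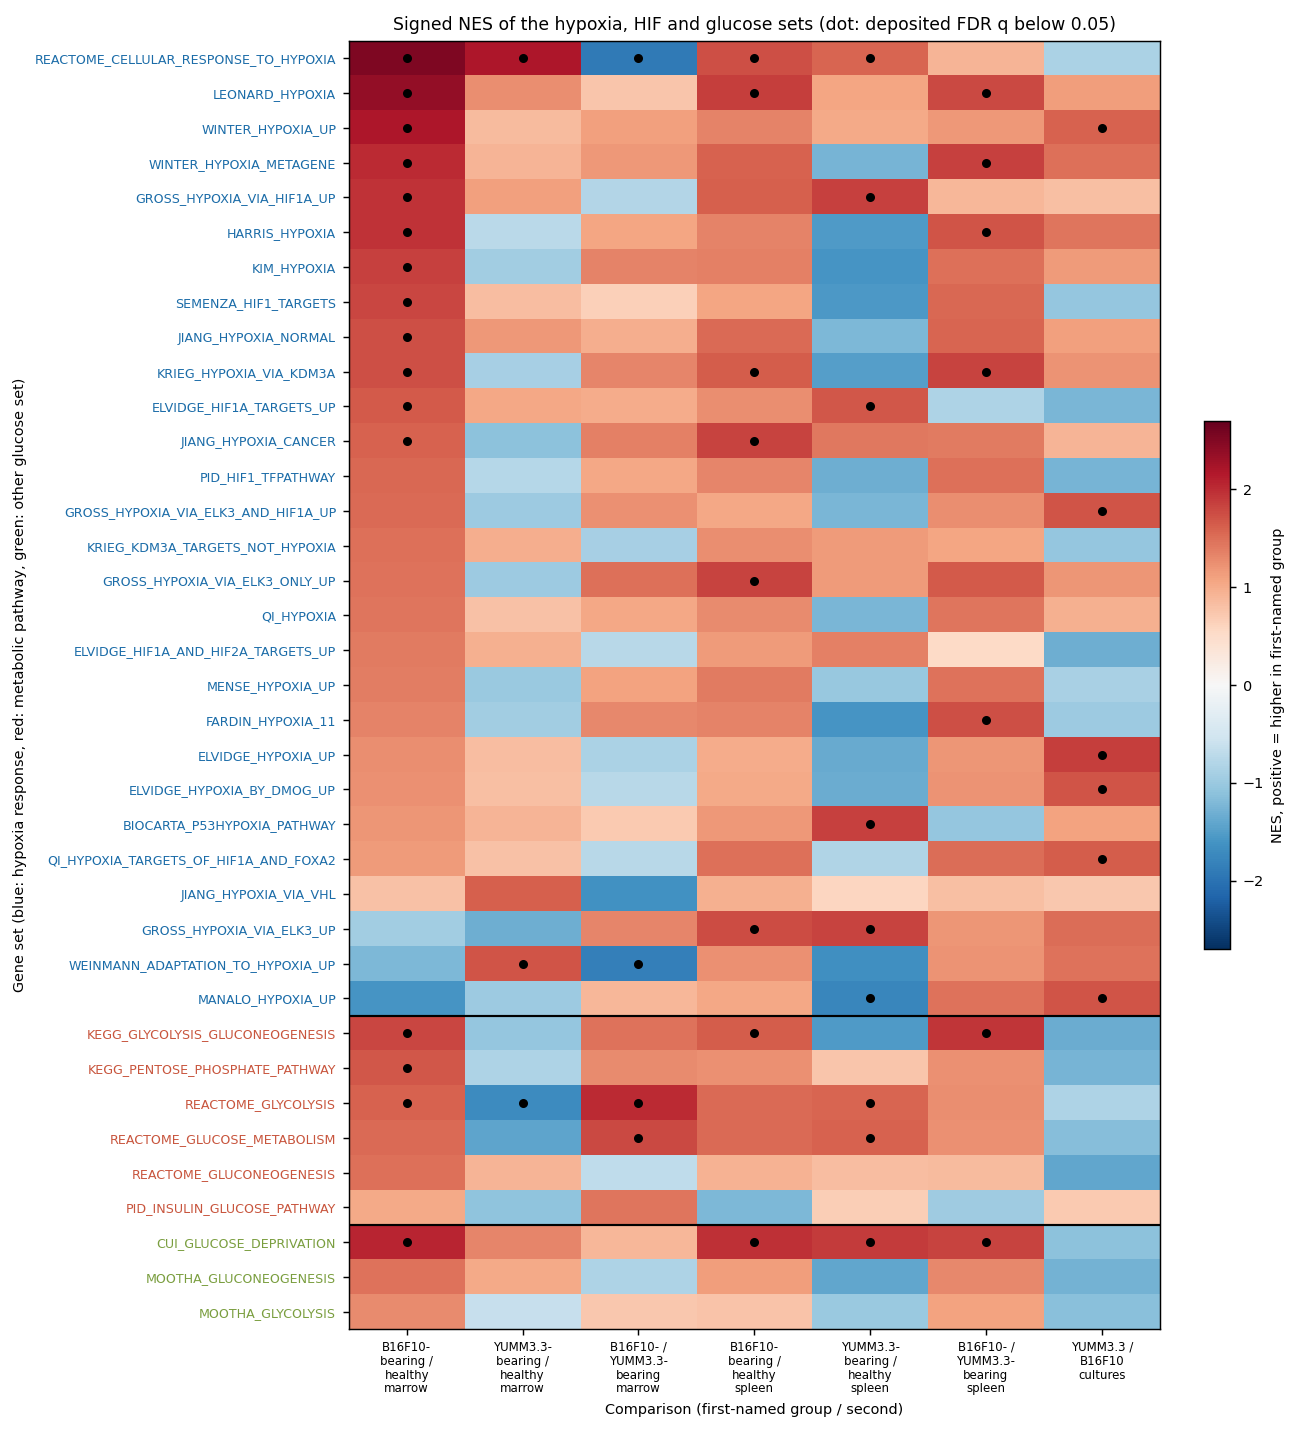
Signed NES of the 37 oxygen and glucose sets (rows) in the 7 comparisons (columns), with a dot where the deposited FDR q was below 0.05. The column of B16F10-bearing against healthy marrow is positive for 34 of 37 sets, and the hypoxia sets with dots in the culture column are mostly not those with dots in the myeloid columns.

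Of a pair of curated HIF1 lists, the Semenza list was called in 1 comparison and the PID list in 0. SEMENZA_HIF1_TARGETS, 32 genes compiled as bound and induced by HIF1, was higher in B16F10-bearing against healthy marrow with an NES of 1.81 (q = 0.0106, leading edge 28%) in the authors' deposited table. Its score in the authors' deposited table was 1.06 in B16F10-bearing against healthy spleen, 1.55 in B16F10-bearing against YUMM3.3-bearing spleen, and 0.65 in the same contrast of marrow, with no call. YUMM3.3-bearing animals against healthy ones scored 0.84 in marrow and -1.55 in spleen (q = 0.092) in the authors' deposited table, and YUMM3.3 against B16F10 cultures scored -1.04. PID_HIF1_TFPATHWAY lists 63 genes around the HIF1 transcription network. In the authors' deposited table it came nearest to a call in B16F10-bearing against healthy marrow with 1.54 (q = 0.0579), and its lowest score was -1.32 in YUMM3.3-bearing against healthy spleen. Both lists had their highest marrow score in B16F10-bearing animals and a negative score, short of the threshold, in the YUMM3.3-bearing spleen.

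Hypoxia response sets made up 12 of the 16 calls in B16F10-bearing against healthy marrow, about the same share as the 28 such sets hold among the 37. Of these sets 42.9% were called higher, beside 50.0% of the metabolic pathway sets and 20.1% of all listed sets. The 12 do not all stand for a raised response to low oxygen. Among them ELVIDGE_HIF1A_TARGETS_UP (1.65) and GROSS_HYPOXIA_VIA_HIF1A_UP (1.95) list genes raised by knockdown of HIF1A, the gene of the alpha subunit. LEONARD_HYPOXIA, from renal tubular cells kept in low oxygen, scored 2.37 with q listed as 0 and a leading edge of 44% against healthy marrow in the authors' deposited table. WINTER_HYPOXIA_UP and WINTER_HYPOXIA_METAGENE, derived from hypoxic head and neck cancers, scored 2.19 (q = 0.000115) and 2.01 (q = 0.00147) there, by the authors' deposited table. HARRIS_HYPOXIA scored 1.95 (q = 0.00297), KIM_HYPOXIA 1.85 (q = 0.00735) and JIANG_HYPOXIA_NORMAL 1.74 (q = 0.018) in the same comparison of the authors' deposited table. KRIEG_HYPOXIA_VIA_KDM3A, genes whose induction by low oxygen needs the histone demethylase KDM3A, scored 1.73 (q = 0.0183) there in the authors' deposited table. The matching set of KDM3A targets outside hypoxia, which enters by its name alone, scored 1.49 (q = 0.074) in the authors' deposited table and was called in 0 of 7 comparisons.

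In B16F10-bearing against healthy spleen, 6 of the 28 hypoxia response sets were higher. That is 21.4%, near the 16.6% of all listed sets. LEONARD_HYPOXIA scored 1.86 (q = 0.00402) and KRIEG_HYPOXIA_VIA_KDM3A 1.64 (q = 0.0422) in the authors' deposited table, so both passed in each tissue. JIANG_HYPOXIA_CANCER, from a renal carcinoma line, passed in each tissue too, with 1.81 (q = 0.00789) in spleen and 1.60 (q = 0.0424) in marrow in the authors' deposited table. GROSS_HYPOXIA_VIA_ELK3_ONLY_UP with 1.82 (q = 0.00773) and GROSS_HYPOXIA_VIA_ELK3_UP with 1.77 (q = 0.0134) completed the spleen calls beside the Reactome hypoxia set, by the authors' deposited table. The Gross sets list genes that rise in oxygen-starved mouse endothelial cells after knockdown of ELK3, an ETS family transcription factor. GROSS_HYPOXIA_VIA_ELK3_UP was also higher in YUMM3.3-bearing against healthy spleen, with 1.82 (q = 0.00554) in the authors' deposited table.

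Against YUMM3.3-bearing spleen, B16F10-bearing spleen was higher for 5 of the 28 hypoxia response sets (17.9%, beside 9.63% of all listed sets). In the authors' deposited table these were WINTER_HYPOXIA_METAGENE with 1.85 (q = 0.0132), KRIEG_HYPOXIA_VIA_KDM3A with 1.82 (q = 0.0157) and LEONARD_HYPOXIA with 1.78 (q = 0.0224). FARDIN_HYPOXIA_11, a neuroblastoma signature, followed with 1.75 (q = 0.0299) and HARRIS_HYPOXIA with 1.70 (q = 0.0409) in the authors' deposited table. Against healthy spleen, the first of these, WINTER_HYPOXIA_METAGENE, scored 1.60 (q = 0.055) in B16F10-bearing animals and -1.25 (q = 0.27) in YUMM3.3-bearing animals, by the authors' deposited table. LEONARD_HYPOXIA was positive in both tumours against healthy spleen, at 1.86 in B16F10-bearing and 1.06 in YUMM3.3-bearing animals in the authors' deposited table. The sets that separated the tumours in spleen thus did not all lie on opposite sides of healthy spleen.

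The widest call fell on the Reactome pathway of the cellular response to hypoxia, 66 genes that cover oxygen sensing by prolyl hydroxylases, HIF and many subunits of the proteasome. REACTOME_CELLULAR_RESPONSE_TO_HYPOXIA was higher in all 4 comparisons of tumour-bearing with healthy animals, and was alone among the 37 sets in this. In the authors' deposited table its NES was 2.53 (q listed as 0, leading edge 70%) in B16F10-bearing and 2.19 (q = 3.68e-05, leading edge 41%) in YUMM3.3-bearing marrow. In spleen it was 1.75 (q = 0.0159) in B16F10-bearing and 1.58 (q = 0.0446) in YUMM3.3-bearing animals, with a leading edge of 65% in each, by the authors' deposited table. B16F10-bearing marrow was lower than YUMM3.3-bearing marrow for it, with -1.91 (q = 0.00601) in the authors' deposited table. The same contrast of spleen scored 0.92 and the cultures -0.86 in the authors' deposited table, without a call.

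A proteasome set moved beside it. KEGG_PROTEASOME scored 2.52 in B16F10-bearing and 2.33 in YUMM3.3-bearing against healthy marrow in the authors' deposited table. In spleen it scored 2.06 in B16F10-bearing and 1.83 in YUMM3.3-bearing against healthy animals, and all 4 were called, in the authors' deposited table. It was likewise lower in B16F10-bearing than in YUMM3.3-bearing marrow, with -2.00 (q = 0.00231), and scored -0.83 in the cultures, in the authors' deposited table. Of 4 proteasome sets, 4 were higher in B16F10-bearing marrow, and 3 in each of the other 3 comparisons with healthy animals. The member genes of the sets are not in the files, so the part of the proteasome genes in the Reactome hypoxia result was not tested.

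**Figure D3:**
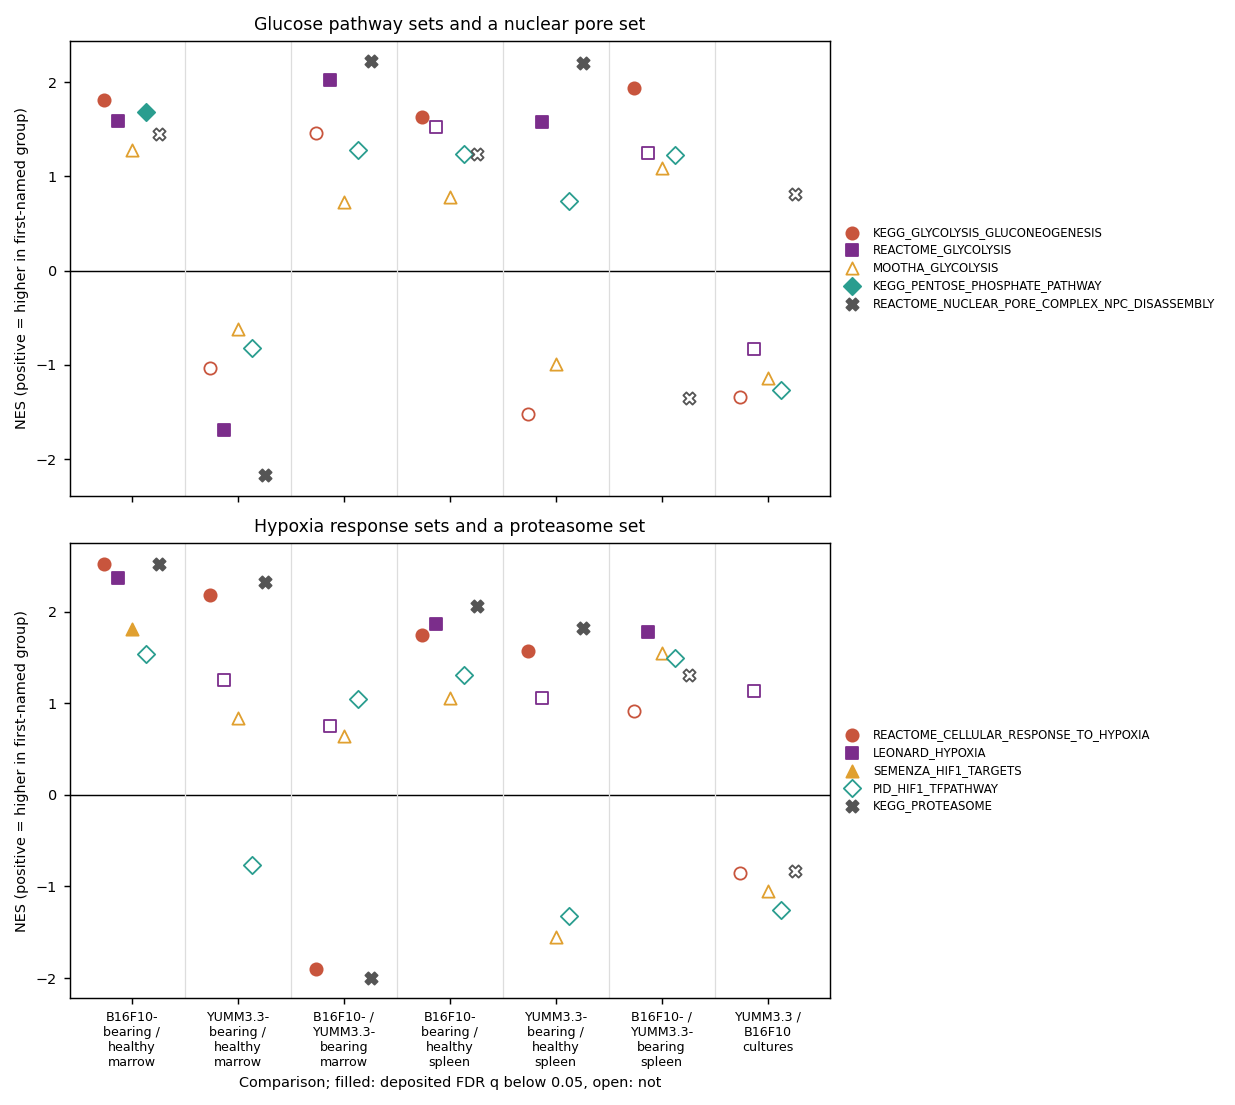
NES of curated sets in the 7 comparisons, with filled symbols for a deposited FDR q below 0.05. The upper panel plots glucose pathway sets beside a nuclear pore set, and the lower panel hypoxia response sets beside KEGG_PROTEASOME. The Reactome hypoxia set and KEGG_PROTEASOME are both filled and positive in the 4 comparisons of tumour-bearing with healthy animals, and both filled and negative in B16F10-bearing against YUMM3.3-bearing marrow.

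Glycolysis was called higher in B16F10-bearing animals, most often by the KEGG set. KEGG_GLYCOLYSIS_GLUCONEOGENESIS lists 48 genes of the shared enzymes from hexokinase to lactate dehydrogenase and of the reverse route. In the authors' deposited table it was higher in B16F10-bearing animals against healthy marrow with 1.81 (q = 0.0108, leading edge 33%), against healthy spleen with 1.63 (q = 0.0475, leading edge 25%), and against YUMM3.3-bearing spleen with 1.93 (q = 0.00476, leading edge 27%). Its score against YUMM3.3-bearing marrow was 1.46 (q = 0.12) in the authors' deposited table. In YUMM3.3-bearing animals it scored -1.04 (q = 0.54) against healthy marrow and -1.52 (q = 0.1) against healthy spleen, by the authors' deposited table. All 4 comparisons with B16F10-bearing animals were positive for this set, and both with YUMM3.3-bearing against healthy animals were negative.

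Pentose phosphate genes passed in 1 comparison. KEGG_PENTOSE_PHOSPHATE_PATHWAY, 23 genes that make NADPH and ribose from glucose 6-phosphate, scored 1.68 (q = 0.0267, leading edge 52%) in B16F10-bearing against healthy marrow in the authors' deposited table. It scored 1.23 in B16F10-bearing against healthy spleen, and -0.82 and 0.74 in YUMM3.3-bearing against healthy marrow and spleen, in the authors' deposited table. Against YUMM3.3-bearing animals, B16F10-bearing ones scored 1.28 in marrow and 1.23 in spleen for it in the authors' deposited table, neither of which was called.

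The Reactome glycolysis set had the opposite sign to the KEGG set in YUMM3.3-bearing against healthy spleen, and the same sign in the other 6 comparisons. REACTOME_GLYCOLYSIS holds 63 genes, among them the nuclear pore proteins that take part in the transport of the glucokinase regulator. In B16F10-bearing against healthy marrow it scored 1.58 (q = 0.0467) in the authors' deposited table. YUMM3.3-bearing against healthy marrow scored -1.69 (q = 0.0434), and YUMM3.3-bearing against healthy spleen 1.58 (q = 0.0446), so that it was called lower in marrow and higher in spleen in the authors' deposited table. The contrast of B16F10-bearing with YUMM3.3-bearing marrow gave 2.02 (q = 0.0038, leading edge 60%) in the authors' deposited table. REACTOME_GLUCOSE_METABOLISM, the parent pathway of 82 genes, was higher in B16F10-bearing against YUMM3.3-bearing marrow with 1.78 (q = 0.0236) and in YUMM3.3-bearing against healthy spleen with 1.59 (q = 0.0403), in the authors' deposited table.

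In YUMM3.3-bearing against healthy spleen the KEGG set scored -1.52 and the Reactome set 1.58 in the authors' deposited table, and of these the Reactome set was called. REACTOME_NUCLEAR_PORE_COMPLEX_NPC_DISASSEMBLY, set beside it after its values were seen, was called in 3 of the 4 comparisons in which REACTOME_GLYCOLYSIS was. It scored 2.21 (q = 1.66e-05) in YUMM3.3-bearing against healthy spleen, -2.17 (q = 0.000855) in YUMM3.3-bearing against healthy marrow, and 2.22 (q = 0.000226) in B16F10-bearing against YUMM3.3-bearing marrow, in the authors' deposited table. KEGG_CELL_CYCLE was called there too, at 2.61 (q listed as 0) in YUMM3.3-bearing against healthy spleen, -1.74 (q = 0.0326) in YUMM3.3-bearing against healthy marrow and 1.94 (q = 0.00765) in B16F10-bearing against YUMM3.3-bearing marrow, in the authors' deposited table. Where REACTOME_GLYCOLYSIS was called in B16F10-bearing against healthy marrow, the nuclear pore set scored 1.45 (q = 0.0907) and KEGG_CELL_CYCLE 1.35 (q = 0.143), without a call, in the authors' deposited table. Where REACTOME_GLYCOLYSIS scored 1.53 (q = 0.089) in B16F10-bearing against healthy spleen, KEGG_CELL_CYCLE was called with 2.11 (q = 6.35e-05) and the nuclear pore set was not with 1.24, in the authors' deposited table. The part of nuclear pore or cell cycle genes in the Reactome glycolysis result was not tested.

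Sets of gluconeogenesis alone and of insulin control were called in 0 of 7 comparisons. REACTOME_GLUCONEOGENESIS, the synthesis of glucose from lactate and amino acids, reached 1.48 (q = 0.08) in B16F10-bearing against healthy marrow and -1.41 (q = 0.28) in YUMM3.3 against B16F10 cultures in the authors' deposited table. PID_INSULIN_GLUCOSE_PATHWAY, on glucose uptake through GLUT4, lay between -1.22 in B16F10-bearing against healthy spleen and 1.45 in B16F10-bearing against YUMM3.3-bearing marrow in the authors' deposited table. MOOTHA_GLYCOLYSIS and MOOTHA_GLUCONEOGENESIS, compact enzyme lists of 19 and 30 genes, were called nowhere, and had 1.28 and 1.47 in B16F10-bearing against healthy marrow in the authors' deposited table. For YUMM3.3 against B16F10 cultures, 5 of the 6 metabolic pathway sets had a negative score, with a median of -1.21 over the 6 and 0 calls.

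Glucose starvation genes were higher in 3 of the 4 comparisons with healthy animals. CUI_GLUCOSE_DEPRIVATION lists 51 genes that rose in pancreatic cancer cells deprived of glucose. In the authors' deposited table it scored 2.05 (q = 0.000897, leading edge 45%) in B16F10-bearing against healthy marrow and 1.98 (q = 0.000723, leading edge 45%) in B16F10-bearing against healthy spleen. YUMM3.3-bearing animals had 1.89 (q = 0.00253) against healthy spleen and 1.33 (q = 0.23) against healthy marrow in the authors' deposited table. B16F10-bearing spleen was also above YUMM3.3-bearing spleen with 1.82 (q = 0.0158), and the cultures scored -1.11, in the authors' deposited table. Of the 37 sets, it was second to the Reactome hypoxia set in the number of comparisons with healthy animals in which it was called.

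Some signatures state a direction, so that a set raised by low oxygen can be set beside one lowered by it. For 15 sets with names ending in UP or DN, chosen after their values were seen, the experiment behind the name fixes a side. Because of that choice the counts below describe these sets and do not test a direction of the oxygen response. On the oxygen-lack side stood 8 sets, raised by low oxygen or by the hydroxylase inhibitor DMOG, or lowered by knockdown of HIF1A. On the opposite side stood 7 sets, lowered by low oxygen or DMOG, or raised by knockdown of HIF1A. On each side 4 sets came from 1 source, named ELVIDGE, which used breast cancer cells, so the sets of a side share a source. The 16 hypoxia response sets whose names end in neither UP nor DN stand outside both sides, among them the Leonard, Semenza, Krieg, Harris and Kim sets, and their counts are given beside each reading. Other sets ending in UP or DN were also left off both sides. They are the Gross sets named for ELK3, with or without HIF1A, GROSS_HIF1A_TARGETS_DN and the Weinmann pair. By name, those that hold HIF1A could also have been given a side.

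In the melanoma cultures most calls fell on the oxygen-lack sets. Of these 8 sets, 7 were called higher in YUMM3.3 against B16F10 cultures, with a median NES of 1.70, and the opposite side had 0 calls of 7 with a median of -1.09. Over all listed sets 11.8% were higher in the cultures, with a median of 1.08. Of the 16 sets with no UP or DN in their names, 1 was called higher there, with a median of 1.03. GROSS_HYPOXIA_VIA_HIF1A_DN, genes that need HIF1A in low oxygen, led with 1.99 (q = 0.000216, leading edge 48%) in the authors' deposited table. ELVIDGE_HYPOXIA_UP scored 1.86 (q = 0.00233) and ELVIDGE_HYPOXIA_BY_DMOG_UP 1.69 (q = 0.0205) in the authors' deposited table. The knockdown sets ELVIDGE_HIF1A_TARGETS_DN and ELVIDGE_HIF1A_AND_HIF2A_TARGETS_DN scored 1.74 (q = 0.0122) and 1.70 (q = 0.0176) in the authors' deposited table. MANALO_HYPOXIA_UP from endothelial cells had 1.70 (q = 0.0177) and WINTER_HYPOXIA_UP 1.60 (q = 0.0429), while MENSE_HYPOXIA_UP had -0.87 (q = 0.89), in the authors' deposited table. Of the curated HIF1 lists, SEMENZA_HIF1_TARGETS at -1.04 and PID_HIF1_TFPATHWAY at -1.25 were not called and were negative in these cultures in the authors' deposited table.

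The other culture calls among the 37 sets were GROSS_HYPOXIA_VIA_ELK3_AND_HIF1A_UP with 1.70 (q = 0.0191) and QI_HYPOXIA_TARGETS_OF_HIF1A_AND_FOXA2 with 1.64 (q = 0.032) in the authors' deposited table. The Gross set, named for both ELK3 and HIF1A, was placed on neither side. Counted among the sets raised by HIF1A knockdown, it would be a call on the opposite side. KEGG_GLYCOLYSIS_GLUCONEOGENESIS stood at -1.34 (q = 0.36) and KEGG_OXIDATIVE_PHOSPHORYLATION at -2.30 (q listed as 0) in the same cultures in the authors' deposited table. The hypoxia signatures called in YUMM3.3 against B16F10 cultures were all higher, but most calls over all listed sets were too, with 11.8% higher and 1.47% lower. The oxidative phosphorylation set was lower and the negative glycolysis score did not pass. A link between these results was not tested.

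In YUMM3.3-bearing against healthy spleen most calls fell on the opposite sets. The oxygen-lack side had a median of -1.30 with 7 of 8 sets negative, 1 called lower and 0 higher. The opposite side had a median of 1.67 and 4 of 7 sets called higher. Over all listed sets 15.6% were higher and 5.31% lower in that comparison, with a median of -0.69. Of the 16 sets with no UP or DN in their names, 2 were higher and 0 lower, with a median of -1.22. MANALO_HYPOXIA_UP was lower with -1.76 (q = 0.0376, leading edge 26%) and MANALO_HYPOXIA_DN higher with 2.85 (q listed as 0, leading edge 52%) in the authors' deposited table. GROSS_HYPOXIA_VIA_HIF1A_UP had 1.85 (q = 0.00387), ELVIDGE_HYPOXIA_DN 1.72 (q = 0.0154) and ELVIDGE_HIF1A_TARGETS_UP 1.67 (q = 0.0222) in the authors' deposited table. KEGG_DNA_REPLICATION was called higher beside these, with 2.52 (q listed as 0) in YUMM3.3-bearing against healthy spleen in the authors' deposited table. It was also called in B16F10-bearing against healthy spleen with 2.17 (q = 1.68e-05), where 1 of the 7 opposite sets was higher, and not in B16F10-bearing against healthy marrow with 1.44 (q = 0.095), where 4 were, by the authors' deposited table. Genes lowered by low oxygen in dividing cells can include genes of the cell cycle, and their part in this result was not tested.

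BIOCARTA_P53HYPOXIA_PATHWAY, on the stabilisation of p53 in low oxygen, was the remaining hypoxia response set called in that spleen comparison, with 1.84 (q = 0.00446, leading edge 45%) in the authors' deposited table. It was called in no other comparison.

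In B16F10-bearing against healthy animals both sides had positive medians, as had all listed sets, with 0.96 in marrow and 1.09 in spleen. Over all listed sets 20.1% were higher in marrow and 16.6% in spleen. Against healthy marrow, 1 of 8 oxygen-lack sets was higher, WINTER_HYPOXIA_UP, and 4 of 7 opposite sets were higher and 1 lower, with a median of 1.25 for the oxygen-lack side and 1.65 for the opposite side. Of the 16 sets with no UP or DN in their names, 9 were called higher in that comparison, with a median of 1.67, among them LEONARD_HYPOXIA, HARRIS_HYPOXIA, KIM_HYPOXIA, SEMENZA_HIF1_TARGETS and KRIEG_HYPOXIA_VIA_KDM3A. Which side held more calls therefore depends on the sets admitted to a side. MANALO_HYPOXIA_DN again led with 2.60 (q listed as 0, leading edge 63%), followed by ELVIDGE_HYPOXIA_DN with 1.95 (q = 0.00301) and GROSS_HYPOXIA_VIA_HIF1A_UP with 1.95 (q = 0.00288), in the authors' deposited table. ELVIDGE_HIF1A_TARGETS_UP had 1.65 (q = 0.0319), whereas MANALO_HYPOXIA_UP had -1.59 (q = 0.079), in the authors' deposited table. WINTER_HYPOXIA_DN, lower in hypoxic head and neck cancers, was lower with -1.73 (q = 0.0389) in marrow and -1.94 (q = 0.0142) in spleen of B16F10-bearing against healthy animals in the authors' deposited table. The Winter pair thus pointed to the oxygen-lack side in marrow and the Manalo pair to the opposite side, of which only MANALO_HYPOXIA_DN was called. In B16F10-bearing against healthy spleen, 0 of 8 oxygen-lack sets were called, with a median of 1.01, and of 7 opposite sets 1 was higher and 1 lower, with a median of 1.26, while 4 of the 16 sets outside the sides were higher.

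The direct contrasts of the tumours called 0 of these 15 sets in either tissue. In B16F10-bearing against YUMM3.3-bearing spleen, the oxygen-lack sets were all positive, between 0.95 and 1.46, with a median of 1.19 beside 0.73 for the opposite side. All listed sets had a median of 1.04 there, with 2826 of 3883 positive. In the same contrast of marrow the median was 0.07 on the oxygen-lack side and 1.00 on the opposite side, with 0.72 over all listed sets. YUMM3.3-bearing against healthy marrow had medians of 0.82 on the oxygen-lack side and 1.01 on the opposite side, again with 0 calls. Over all listed sets the median there was 0.74.

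**Figure D4:**
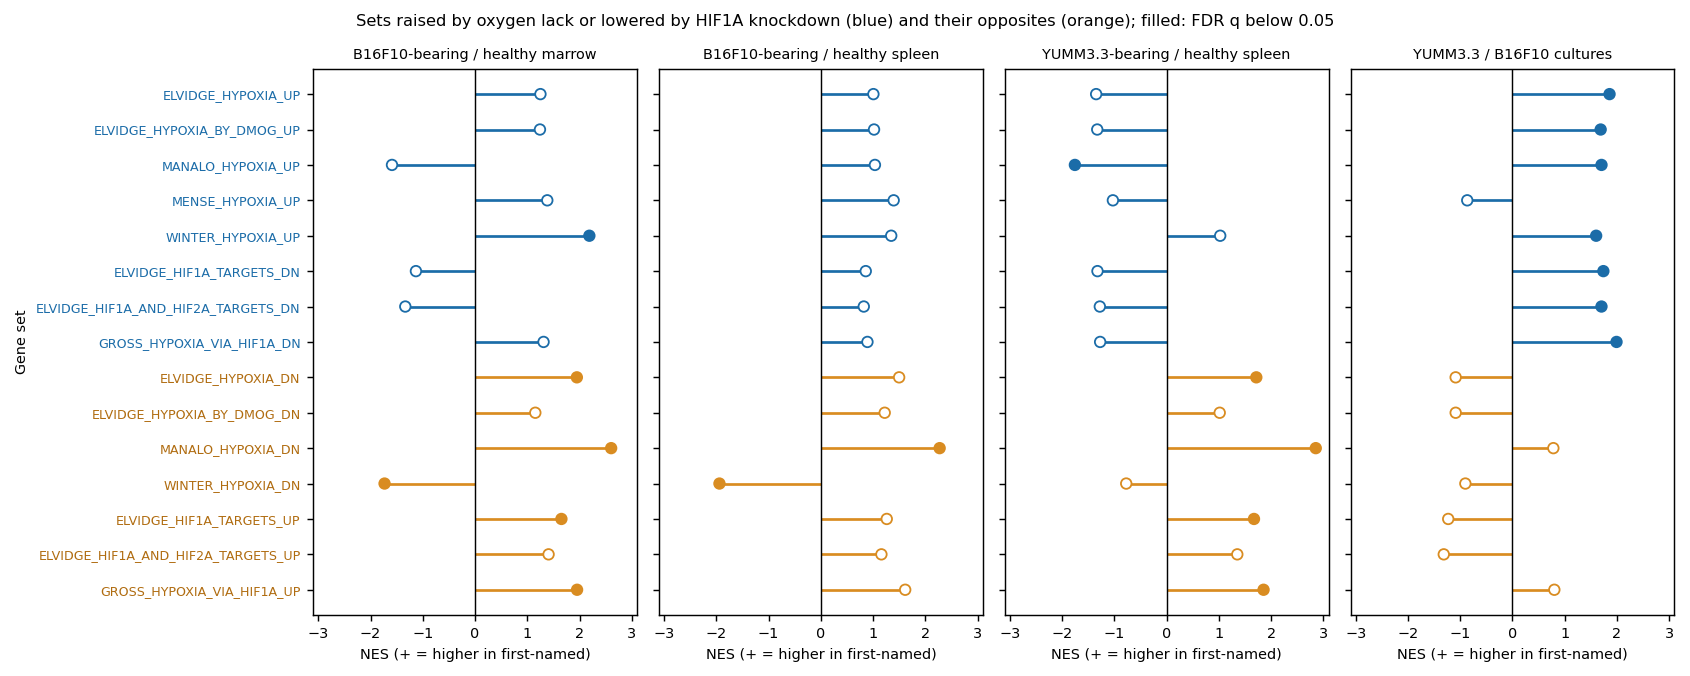
NES of 8 sets on the oxygen-lack side (blue) and 7 on the opposite side (orange) in 4 comparisons, with filled points for a deposited FDR q below 0.05. In YUMM3.3 against B16F10 cultures 7 of the 8 blue points are filled and positive, and in YUMM3.3-bearing against healthy spleen 7 of the 8 blue points are negative and 4 of the 7 orange points are filled and positive.

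Of the 12 sets ending in _DN, the calls not yet given were few. GROSS_HYPOXIA_VIA_ELK3_DN was higher in B16F10-bearing against healthy marrow with 1.80 (q = 0.0117) and spleen with 1.76 (q = 0.0149), and in YUMM3.3 against B16F10 cultures with 1.72 (q = 0.0159), in the authors' deposited table. GROSS_HYPOXIA_VIA_ELK3_ONLY_DN had 1.65 (q = 0.0397) in B16F10-bearing against healthy spleen, and MANALO_HYPOXIA_DN 2.27 (q listed as 0) there, in the authors' deposited table. WEINMANN_ADAPTATION_TO_HYPOXIA_DN was higher in YUMM3.3 against B16F10 cultures with 1.67 (q = 0.0234) and lower in B16F10-bearing against YUMM3.3-bearing marrow with -1.68 (q = 0.037) in the authors' deposited table. ELVIDGE_HYPOXIA_BY_DMOG_DN, GROSS_HIF1A_TARGETS_DN and GROSS_HYPOXIA_VIA_ELK3_AND_HIF1A_DN were called in 0 comparisons and lay between -1.39 and 1.62 in the authors' deposited table. By count, 3 of the 12 (25%) were higher and 1 lower in B16F10-bearing against healthy marrow and again in spleen, where 20.1% of all sets were higher in marrow and 16.6% in spleen. In YUMM3.3-bearing against healthy spleen 2 (16.7%) were higher, beside 15.6% of all sets. These shares are near the background. In the cultures 5 (41.7%) were higher, beside 11.8% of all sets, and in B16F10-bearing against YUMM3.3-bearing marrow 1 was lower.

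The second hypoxia set called in YUMM3.3-bearing marrow came from adaptation to lack of oxygen. WEINMANN_ADAPTATION_TO_HYPOXIA_UP scored 1.71 (q = 0.0268, leading edge 39%) against healthy marrow in the authors' deposited table. It was lower in B16F10-bearing than in YUMM3.3-bearing marrow, with -1.85 (q = 0.00935), and scored -1.22 in B16F10-bearing against healthy marrow, in the authors' deposited table. In that contrast of the tumours its UP and DN sets were both lower in B16F10-bearing marrow, so the pair did not separate by direction. JIANG_HYPOXIA_VIA_VHL, genes of low oxygen that depend on the HIF ubiquitin ligase subunit VHL, had the same signs but missed the threshold, with 1.61 (q = 0.055) in YUMM3.3-bearing against healthy marrow and -1.63 (q = 0.051) in B16F10-bearing against YUMM3.3-bearing marrow in the authors' deposited table.

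Marrow and spleen shared part of the calls. For B16F10-bearing against healthy animals, 6 of the 37 sets were higher in both tissues, which is 37.5% of the 16 called in marrow and 75.0% of the 8 called in spleen. Over all listed sets, 50.7% of those called in marrow and 61.6% of those called in spleen were called in both. For YUMM3.3-bearing against healthy animals, 1 set was higher in both, 50.0% of the 2 in marrow and 12.5% of the 8 in spleen, beside 25.8% of the marrow calls and 16.0% of the spleen calls over all listed sets. Over the 4 comparisons with healthy animals, 16 of the 37 sets (43.2%) were higher in 0, 11 (29.7%) in 1, 8 (21.6%) in 2, 1 (2.7%) in 3 and 1 (2.7%) in 4. Of the 3868 sets listed in every comparison, 65.3% were higher in 0, 16.4% in 1, 10.3% in 2, 6.67% in 3 and 1.24% in 4. Across all 7 comparisons, 10 of the 37 (27.0%) were never called in either direction, beside 44.4% of all such sets. The difference between tissues was not tested.

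Several calls lay near the threshold. In B16F10-bearing against healthy marrow the weakest called set was REACTOME_GLYCOLYSIS (q = 0.0467) and the nearest uncalled set PID_HIF1_TFPATHWAY (q = 0.0579), by the authors' deposited table. In B16F10-bearing against healthy spleen, KEGG_GLYCOLYSIS_GLUCONEOGENESIS (q = 0.0475) was just inside and GROSS_HYPOXIA_VIA_HIF1A_UP (q = 0.0518) just outside, by the authors' deposited table. In YUMM3.3-bearing against healthy spleen the neighbours were REACTOME_GLYCOLYSIS (q = 0.0446) and WEINMANN_ADAPTATION_TO_HYPOXIA_UP (q = 0.0618, with a negative score) in the authors' deposited table. In B16F10-bearing against YUMM3.3-bearing spleen they were HARRIS_HYPOXIA (q = 0.0409) and GROSS_HYPOXIA_VIA_ELK3_ONLY_UP (q = 0.0541), and in the cultures WINTER_HYPOXIA_UP (q = 0.0429) and GROSS_HYPOXIA_VIA_ELK3_UP (q = 0.0797), by the authors' deposited table. In marrow, REACTOME_GLYCOLYSIS (q = 0.0434) for YUMM3.3-bearing against healthy and REACTOME_GLUCOSE_METABOLISM (q = 0.0236) for B16F10-bearing against YUMM3.3-bearing animals were just inside, with JIANG_HYPOXIA_VIA_VHL outside at 0.0549 and 0.0509, by the authors' deposited table.

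Respiration, the oxygen-using end of glucose breakdown, was followed through 4 sets. Their names overlap and they can share genes, so their moving together is not separate evidence. Over all listed sets, at most 20.1% were called in 1 direction in any comparison. All 4 respiration sets were higher in B16F10-bearing against healthy marrow and spleen and in YUMM3.3-bearing against healthy marrow, with median NES of 2.41 in B16F10-bearing marrow, 1.78 in B16F10-bearing spleen and 2.92 in YUMM3.3-bearing marrow. All 4 were lower in B16F10-bearing against YUMM3.3-bearing marrow with a median of -2.72, and higher in the same contrast of spleen with a median of 1.79. The spleen of YUMM3.3-bearing against healthy animals had 0 called, with a median of -0.53, and YUMM3.3 against B16F10 cultures had all 4 lower with a median of -2.11. KEGG_OXIDATIVE_PHOSPHORYLATION scored 2.95 in YUMM3.3-bearing against healthy marrow in the authors' deposited table, where KEGG_GLYCOLYSIS_GLUCONEOGENESIS scored -1.04.

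Other central carbon pathways, 10 sets, had 5 higher in B16F10-bearing against healthy marrow and 3 higher in B16F10-bearing against healthy spleen, with medians of 1.55 and 1.47. KEGG_CITRATE_CYCLE_TCA_CYCLE, the mitochondrial oxidation of acetyl units, scored 1.88 (q = 0.00578) in B16F10-bearing against healthy marrow in the authors' deposited table. YUMM3.3-bearing against healthy animals had 1 of the 10 higher in marrow (10.0%, beside 9.68% of all sets) and 0 in spleen (beside 15.6%). Against YUMM3.3-bearing animals, B16F10-bearing ones had 1 lower in marrow and 3 higher in spleen, and YUMM3.3 against B16F10 cultures had 1 lower. REACTOME_THE_CITRIC_ACID_TCA_CYCLE_AND_RESPIRATORY_ELECTRON_TRANSPORT is among both the 10 and the respiration sets above. It was the only set of the 10 called in YUMM3.3-bearing against healthy marrow, in the tumour contrast of marrow and in the cultures. Calls in those comparisons thus repeat respiration calls. The set was also among those higher in B16F10-bearing against healthy marrow and spleen and against YUMM3.3-bearing spleen.

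Of 17 other HIF pathway sets, such as VHL, HIF2 and VEGF signalling, 3 were higher and 1 lower in B16F10-bearing against healthy marrow. In B16F10-bearing against healthy spleen, 2 were higher and 2 lower. The shares higher, 17.6% in marrow and 11.8% in spleen, were below the 20.1% and 16.6% of all sets. The 2 lower in spleen (11.8%) stood beside 1.60% of all sets. The 1 lower in marrow (5.88%) was near the background share. BIOCARTA_HIF_PATHWAY was among those higher in marrow with 1.65 (q = 0.0329) in the authors' deposited table. YUMM3.3-bearing against healthy animals had 0 of the 17 called in either tissue, and YUMM3.3 against B16F10 cultures had 4 higher (23.5%, beside 11.8% of all sets). B16F10-bearing against YUMM3.3-bearing animals had 0 called in marrow and 2 higher and 1 lower in spleen. These are 11.8% and 5.88%, beside 9.63% and 1.47% of all sets. Of 9 sets of mTOR, a kinase that raises HIF1A translation, 1 was higher and 4 lower in YUMM3.3-bearing against healthy marrow, 4 were higher in B16F10-bearing against YUMM3.3-bearing marrow, and 1 was higher in B16F10-bearing against healthy marrow. The 4 lower (44.4%) stood beside 6.52% of all sets, and the 4 higher (44.4%) beside 8.09%. The 1 higher (11.1%) stood beside 9.68% in YUMM3.3-bearing and 20.1% in B16F10-bearing against healthy marrow. The other 4 comparisons called 0 mTOR sets.

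Sets of blood cell types were counted in the same comparisons, to be read against the background shares above. Of 12 granulocyte and monocyte sets, 6 were higher and 2 lower in B16F10-bearing against healthy marrow, 4 were higher in B16F10-bearing against healthy spleen, and 6 were higher in B16F10-bearing against YUMM3.3-bearing spleen. KEGG_GLYCOLYSIS_GLUCONEOGENESIS was called higher in these 3 comparisons. YUMM3.3-bearing against healthy animals had 0 higher in either tissue and 2 lower in spleen, and B16F10-bearing against YUMM3.3-bearing marrow had 1 higher. Of 24 B cell sets, 5 were higher and 4 lower in B16F10-bearing against healthy marrow, and 2 higher and 3 lower in spleen. The 5 of 24 higher in marrow (20.8%) is close to the 20.1% of all sets, and the 2 of 24 in spleen (8.33%) is below the 16.6%. YUMM3.3-bearing against healthy animals had 3 higher and 3 lower in marrow, and 3 higher and 1 lower in spleen. B16F10-bearing against YUMM3.3-bearing animals had 2 higher and 1 lower in marrow, and 0 higher and 3 lower in spleen. Their part in the oxygen and glucose results was not tested.

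Red cell, platelet and T cell sets had calls in both directions. Of 12 erythroid sets, 3 were higher and 0 lower in B16F10-bearing and 3 higher and 1 lower in YUMM3.3-bearing against healthy spleen. Against healthy marrow, 1 was higher and 0 lower in B16F10-bearing and 0 higher and 1 lower in YUMM3.3-bearing animals. Of 11 platelet sets, 5 were lower and 1 higher in YUMM3.3-bearing against healthy spleen, 4 were higher in B16F10-bearing against YUMM3.3-bearing spleen, and 1 was higher in B16F10-bearing against healthy spleen. Of 10 T and NK cell sets, 2 were higher in each tumour against healthy spleen, with 2 lower in B16F10-bearing and 1 lower in YUMM3.3-bearing animals. KEGG_MELANOGENESIS, a pigment cell pathway, was called in 0 comparisons and lay between -1.47 and 0.89 in the authors' deposited table. In marrow, platelet sets were 1 higher and 2 lower in B16F10-bearing and 2 higher and 1 lower in YUMM3.3-bearing against healthy animals, and T and NK cell sets 1 higher and 2 lower in B16F10-bearing and 0 higher and 1 lower in YUMM3.3-bearing animals. The part of these cell types was not tested.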

How the data were processed

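The values analysed were 14 deposited gene set enrichment reports, 1 for each direction of 7 comparisons, with a set collection of curated and published lists. Per the file headers, each row in the authors' reports gives a set's size, its enrichment score and NES, a nominal p-value, an FDR q-value and a family-wise p-value, besides its leading edge and the rank where its score peaks. Per the submitters' processing notes, the authors used the genome build mm10, with STAR 2.7.1a, DESeq2 1.22.2, FastQC 0.11.8 and featureCounts 1.6.0. The role of these tools and the enrichment software are not given in the sources used here. Library depth, values per library and member genes were not analysed here, so precision between animals is unknown and no sequence, interval or test could be added.

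Myeloid reports were read as listing the sets higher in the group named first. The culture reports were read by their labels up and down for YUMM3.3 over B16F10. A joint reversal of all reports of a tissue could not be detected from the files. The smallest nonzero nominal p was 0.00103, below the 0.0500 (3 against 3), 0.100 (3 against 2) or 0.167 (2 against 2) that relabelled libraries can reach, so the deposited p and q do not measure the spread between libraries.

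Sets were chosen by words in their names, with names ending in _DN apart, and the members and lists were chosen with earlier results of these data known. Sets named in the text are 8 curated pathways, the members past the threshold (up to 12 a direction), those nearest to it, every _DN set by value or range, and sets set beside them. The proteasome, respiration, other central carbon, HIF and mTOR lists and the cell type lists were matched by words in set names, without _DN sets, after hits inside longer words such as host cell were dropped. The oxygen-lack and opposite sides, the nuclear pore set and the replication and cell cycle sets were chosen after their values were seen, as was the count of hypoxia sets with no UP or DN in their names. Counting was done in Python 3.11.15 with pandas 2.3.3, and checked on simulated reports.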

Additional observations from a re-analysis of the deposited data

How the results depend on the processing

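The counts of the 37 sets called higher or lower were repeated under 5 other choices, and under 1 more chosen after seeing the data. These choices change which calls are counted and leave each deposited score as it is. At an FDR q below 0.25, the sets higher numbered 30 in B16F10-bearing and 4 in YUMM3.3-bearing against healthy marrow, 10 in B16F10-bearing against YUMM3.3-bearing marrow, 20 in B16F10-bearing against healthy spleen, 17 in B16F10-bearing against YUMM3.3-bearing spleen and 10 in YUMM3.3 against B16F10 cultures. The sets lower at that q numbered 1 in B16F10-bearing and 3 in YUMM3.3-bearing against healthy marrow, and 12 in YUMM3.3-bearing against healthy spleen. At a family-wise p below 0.05, 3 sets were higher in B16F10-bearing and 1 in YUMM3.3-bearing against healthy marrow, and 0 were higher in each of the other 5 comparisons, while the sets lower fell to 0 in the 3 comparisons that had any. With each source counted once, 8 were higher in B16F10-bearing and 1 in YUMM3.3-bearing against healthy marrow, 1 in B16F10-bearing against YUMM3.3-bearing marrow, 4 in each tumour against healthy spleen and 2 in the cultures, with 0 lower in YUMM3.3-bearing against healthy marrow and 1 lower in B16F10-bearing against YUMM3.3-bearing marrow. With sets of 25 to 200 genes, 1 was higher in YUMM3.3-bearing against healthy marrow and 1 lower in B16F10-bearing against YUMM3.3-bearing marrow. With the _DN sets counted, 1 was lower in B16F10-bearing against healthy marrow, 1 lower in B16F10-bearing against healthy spleen, and 11 higher in the cultures. Without the Reactome hypoxia response, glycolysis and glucose metabolism sets, the choice made after seeing the data, 1 was higher and 0 lower in YUMM3.3-bearing against healthy marrow, 0 higher and 1 lower in B16F10-bearing against YUMM3.3-bearing marrow, and 5 higher in YUMM3.3-bearing against healthy spleen. The 2 choices of threshold kept the same 37 sets and changed the bar for a call, while the others changed which sets were counted.

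Of all 49 sets, those ending in _DN included, 36 had at least 1 call. Over these 36 sets, 69 calls of a set in a comparison were made, and 61 of the calls were lost at a family-wise p below 0.05. Leaving out a library could not be run, since the files hold no values per library. No paired analysis was possible because the reports carry no replicate numbers and no values per library. Depth is unknown here, and sets that share genes or a source do not count as separate observations.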
